A study of Mus musculus with 4 samples.

Results

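The H3K9ac peaks described here were GC-rich. They were the differential peaks of aorta macrophages, listed with their sequence in the study's supplementary table, in which G and C made up at least 53% of the bases held. Of the 483 H3K9ac peaks whose sequence was held, 250 met this rule and 233 fell below it, and the deposited list had 20943 H3K9ac peaks in all. The cut on base composition used no read count, but the table itself was compiled from the peaks with the most reads in each exposure, so that width and direction are compared here with the GC-poor peaks of the same table and only set beside the deposited list.

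C57BL/6J mice lived for 20 weeks under chronic intermittent hypoxia (CIH), in which 90 s at 6.1% O2 alternated with 90 s at 21% O2 through the light phase, or under room air (RA) at 21% O2, and the labels name no transgene or altered allele in either group. Cells of the dissociated aorta were isolated on CD11b+ magnetic beads and are called macrophages in the labels, although neutrophils and other myeloid cells also carry CD11b. Chromatin was immunoprecipitated with antibodies to H3K9ac or H3K27me3, giving 1 library for each mark in each exposure, without input. Every difference below therefore compared 1 CIH library with 1 RA library, no test of the exposures was possible, and the deposited list gave each peak a position and a direction but no signal. The read counts that the table gives per peak were not used here, so no depth is set behind a single peak.

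H3K9ac is the acetylation of lysine 9 of histone H3, a mark laid down by acetyltransferases such as GCN5 and PCAF and found at active promoters just around the transcription start. Many mammalian promoters lie in CpG islands, stretches rich in G and C that have kept their CG dinucleotides because they are seldom methylated. Housekeeping genes and many signal-responsive genes start in such islands, whereas tissue-specific enhancers and promoters are more often poor in CG.

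The sequences below show the range of the GC-rich peaks, and each is the mm9 + strand written 5′ to 3′. The first is the left end of the peak at Gorasp2 (chr2:70499501-70499740), shown as one of the peaks highest in GC, with its GC boxes in capitals. The next pair comes from peaks that were both paired with Rnf114 but had opposite directions (chr2:167311051-167311230 and chr2:167318301-167318480), and CG dinucleotides are in capitals, 1 in the former and 21 in the latter.
Gorasp2: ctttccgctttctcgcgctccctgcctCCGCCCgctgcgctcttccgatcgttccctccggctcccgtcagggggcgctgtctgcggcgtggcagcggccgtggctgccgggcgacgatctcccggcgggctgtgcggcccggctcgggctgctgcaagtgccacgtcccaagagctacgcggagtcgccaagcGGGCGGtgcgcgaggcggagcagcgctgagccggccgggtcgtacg
Rnf114, higher in RA: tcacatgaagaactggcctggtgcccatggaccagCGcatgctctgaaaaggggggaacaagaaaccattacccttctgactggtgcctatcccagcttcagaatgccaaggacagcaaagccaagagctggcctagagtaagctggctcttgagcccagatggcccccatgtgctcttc
Rnf114 and Spata2, higher in CIH: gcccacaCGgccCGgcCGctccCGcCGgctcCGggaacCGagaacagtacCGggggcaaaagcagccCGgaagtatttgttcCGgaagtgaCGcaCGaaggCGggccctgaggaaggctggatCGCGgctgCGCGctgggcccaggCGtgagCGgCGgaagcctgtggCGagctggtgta

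At Ube2j1 a peak higher in RA ended at the base before a peak higher in CIH began, and the last 150 bases of the former (chr4:33118001-33118150) and the first 150 of the latter (chr4:33118151-33118300) are shown with CG in capitals. They held 22 and 25 CG dinucleotides, so the change of direction fell inside 1 unbroken CG-rich stretch.
Ube2j1, higher in RA: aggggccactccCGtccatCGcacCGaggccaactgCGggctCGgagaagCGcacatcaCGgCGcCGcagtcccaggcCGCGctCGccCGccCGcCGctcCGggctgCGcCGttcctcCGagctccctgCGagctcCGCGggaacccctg
Ube2j1, higher in CIH: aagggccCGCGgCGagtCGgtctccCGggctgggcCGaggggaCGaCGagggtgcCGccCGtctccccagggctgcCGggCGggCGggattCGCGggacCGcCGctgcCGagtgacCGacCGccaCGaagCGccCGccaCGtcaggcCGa

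The peak at Eif1ad (chr19:5366773-5366916, higher in RA) held RefSeq start sites on both strands, printed here as the capital letters, for Eif1ad on the + strand and Banf1 on the - strand. The left end of the middle Jun peak (chr4:94718251-94718430, higher in CIH) has its CRE core in capitals. The start region of Srxn1 (chr2:151931110-151931289, higher in CIH), a gene picked out after the match to RefSeq start sites was seen, has GC boxes and a CRE core in capitals.
Eif1ad and Banf1: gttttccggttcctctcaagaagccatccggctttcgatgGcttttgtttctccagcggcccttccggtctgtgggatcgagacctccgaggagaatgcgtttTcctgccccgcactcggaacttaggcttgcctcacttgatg
Jun, higher in CIH: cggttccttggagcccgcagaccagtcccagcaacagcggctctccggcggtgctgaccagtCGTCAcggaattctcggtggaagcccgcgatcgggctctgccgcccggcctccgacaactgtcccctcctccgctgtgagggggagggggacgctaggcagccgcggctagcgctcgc
Srxn1: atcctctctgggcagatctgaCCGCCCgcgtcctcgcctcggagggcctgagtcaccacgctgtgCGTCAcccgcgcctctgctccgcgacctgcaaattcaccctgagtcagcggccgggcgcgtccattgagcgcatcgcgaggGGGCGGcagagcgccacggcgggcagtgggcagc

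GC content over the 250 peaks ran from 53% to 79.0%, with a median of 61.9%. The highest values among the peaks higher in CIH were at Ube2j1 (79.0%), a ubiquitin-conjugating enzyme of the endoplasmic reticulum, Gorasp2 (76.2%), a Golgi stacking protein, and Yrdc (74.4%), which takes part in tRNA modification. Pnrc1 (74.2%), the peak shared by Fbxw4 and Fgf8 (73.9%) and Nr4a3 (73.4%), an orphan nuclear receptor, came next. Among the peaks higher in RA, high values were at Rc3h2 with Zbtb6 (76.8%), Tectb (75.2%), Ptp4a2 (74.2%), Ncoa3 (74.1%), a nuclear receptor coactivator, and Psip1 (73.7%). Both directions thus reached past 76%, and their medians were 61.4% for CIH and 62.7% for RA. Just above the threshold stood Blcap (53%), Ier5l with Ppp2r4, Mylk2 and the RA peak of Pmepa1 (53.1% each), and just below it 8 peaks tied at 52.9%, among them Nfe2l2, which encodes the antioxidant regulator Nrf2, Igsf8 and Stx5a.

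**Figure D1:**
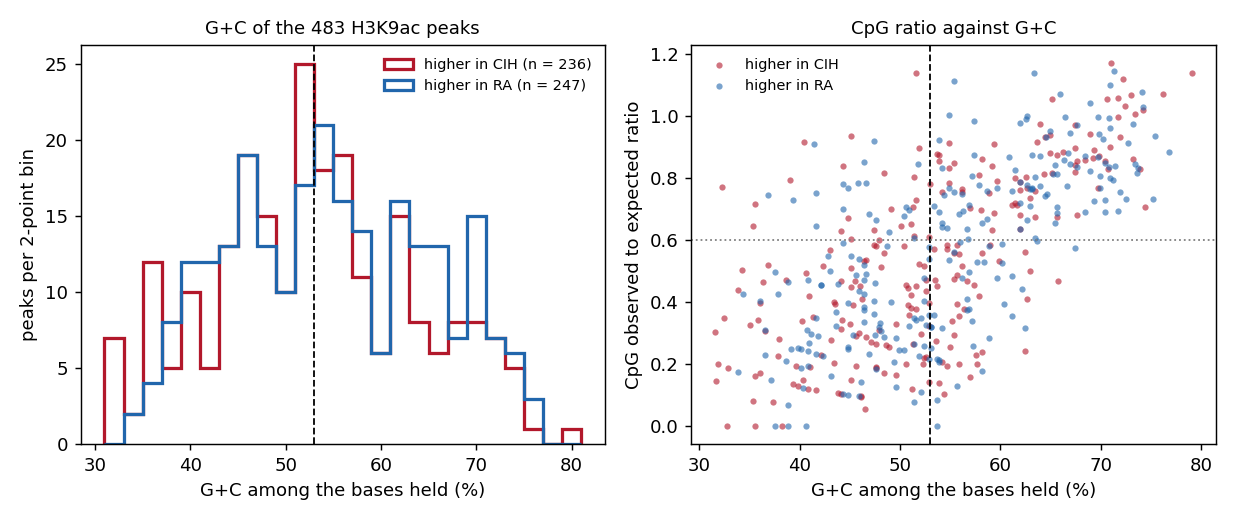
Left, number of the 483 H3K9ac peaks per 2-point bin of G+C (x axis, percent of the bases held), in blue for the 247 RA peaks and in red for the 236 CIH peaks; right, the CpG observed to expected ratio of each peak against its G+C. The dashed line is the threshold of 53%, the dotted line a ratio of 0.6, and both colours lie on either side of the threshold, with 113 red and 137 blue peaks to its right.

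Of the GC-rich peaks, 137 had the higher signal in the RA library and 113 in the CIH library. The CIH share was 45.2% (exact 95% interval 38.9 to 51.6%), against 52.8% (46.2 to 59.3%) for the 233 GC-poor peaks and 45.4% for the whole deposited list. The intervals of the GC-rich and GC-poor shares overlapped. Since the table was compiled for each exposure, its overall balance of directions was set by that choice, and nothing is read from the nearness to the deposited list. All intervals here cover counting error only, and neighbouring peaks are not independent.

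By GC class, the CIH share was 46.2% (30.1 to 62.8%) in 39 peaks from 53 to 55%, 52.9% (40.4 to 65.2%) in 68 peaks from 55 to 60%, 41.1% (28.1 to 55%) in 56 peaks from 60 to 65% and 41.4% (30.9 to 52.4%) in 87 peaks from 65% upward. The intervals of these 4 classes overlapped, and the shares did not fall or rise steadily with GC.

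Direction also varied by chromosome. The rows held covered chromosomes 2, 4, 3, 19 and 1, with 3 further peaks on chromosomes 5 and 18. On chromosome 2, 26 of 88 GC-rich peaks (29.5%, 20.3 to 40.2%) were higher in CIH, against 35 of 68 (51.5%, 39.0 to 63.8%) on chromosome 4, 22 of 46 (47.8%) on chromosome 3, 14 of 25 (56.0%) on chromosome 19 and 13 of 20 (65%) on chromosome 1. The GC-poor peaks were also fewest in CIH on chromosome 2, with 22 of 62 (35.5%), and 40 of 58 (69.0%) of them were higher in CIH on chromosome 4. Without chromosome 2 the CIH share rose to 53.7% (45.7 to 61.6%) for GC-rich and 59.1% (51.3 to 66.5%) for GC-poor peaks, so the GC-rich value depended on that chromosome and the order of both groups did not. In the deposited list 40.1% of chromosome 2 peaks were higher in CIH. The part of the chromosome in the shares was not tested.

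**Figure D2:**
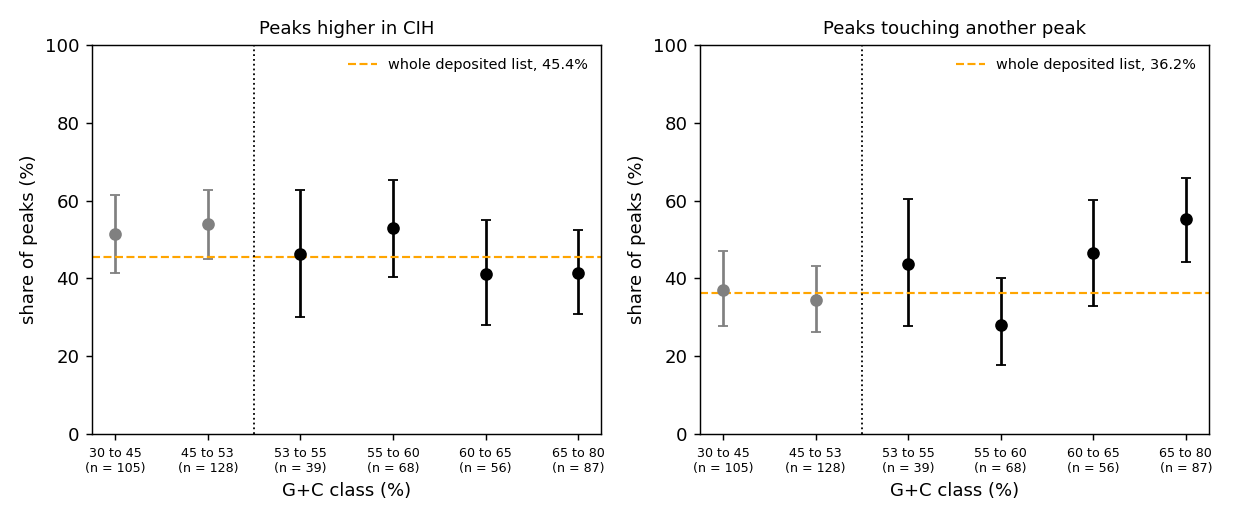
Share of peaks higher in CIH (left) and of peaks touching another peak (right), in percent, by G+C class, with exact 95% intervals; black points are GC-rich classes, grey points GC-poor ones, and the dashed line is the share over the whole deposited list (45.4% and 36.2%). The CIH intervals overlap in every class, and the touching share is highest, at 55.2%, from 65% G+C upward.

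Peaks higher in CIH were the wider ones. Among GC-rich peaks the median width was 1250 bp in CIH, with quartiles of 1000 and 1550 bp, and 800 bp in RA, with quartiles of 650 and 1000 bp. The CIH library was also the one sequenced to the higher yield, according to the study, and the part of depth in the widths was not tested. The difference was of the same direction in GC-poor peaks (1550 and 900 bp) and in the deposited list (600 and 300 bp). It was therefore not particular to GC-rich sequence. GC-rich peaks of either direction were narrower in the median than GC-poor ones. GC was read in at most 400 bases at the left end, so a smaller part of a wider peak was read. The part of this in the relation of GC to width was not tested. Within the GC-rich set, width did not follow GC, with a Spearman correlation of -0.015 over 113 CIH peaks and -0.012 over 137 RA peaks, whereas over all 236 CIH and 247 RA peaks it was -0.33 and -0.18.

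The widest GC-rich peaks higher in CIH were at 1700086P04Rik (2750 bp), Gorasp2 (2200 bp), Txnip and Dnajb5 (2150 bp each) and Uhrf2 (2050 bp). Txnip encodes the inhibitor of thioredoxin that restrains glucose uptake, and Uhrf2 a reader of modified DNA. In RA they were at Sgms2 with Papss1 (2450 bp), Arl6ip6 (1900 bp), Dennd4c (1550 bp), and Rnd3 and Rpe65 with Wls (1450 bp each). Sgms2 makes sphingomyelin from ceramide, and Rnd3 is a small GTP-binding protein that acts on the actin cytoskeleton. Only the first RA peak reached the widths of the first 5 in CIH. Gorasp2 was both among the widest and among the highest in GC.

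**Figure D3:**
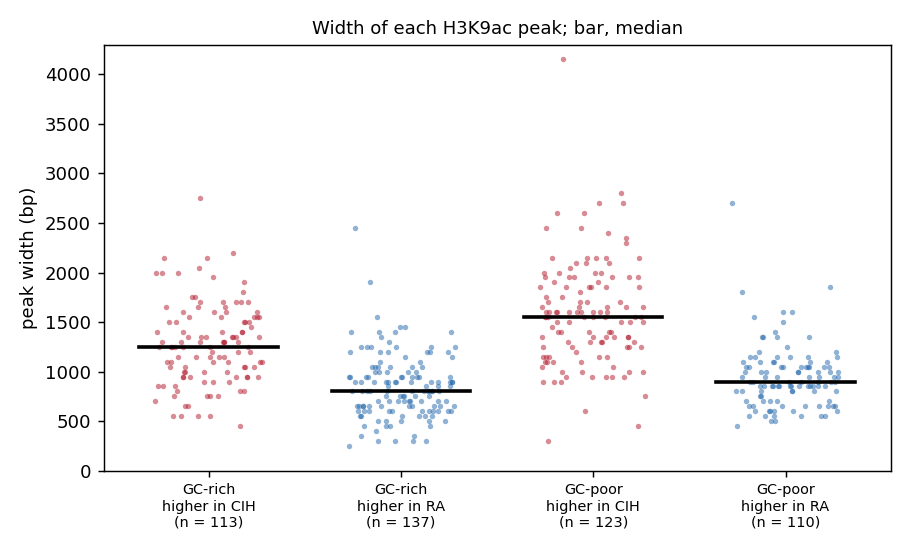
Width in bp (y axis) of each H3K9ac peak in the GC-rich and GC-poor sets, by direction, with the median as a black bar; points are spread sideways at random. The medians are 1250 and 800 bp in the GC-rich set and 1550 and 900 bp in the GC-poor set, and the clouds of CIH and RA overlap.

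Many GC-rich peaks shared an edge with another peak. Of the 250, 110 (44.0%, 37.8 to 50.4%) touched another peak of the deposited list, 99 on 1 side and 11 on both, where 36.2% of all deposited peaks and 35.6% (29.5 to 42.1%) of GC-poor ones did. These made 121 contacts counted from each GC-rich peak, so contacts that joined GC-rich peaks to each other were counted from both sides. None of them joined peaks of the same direction, and neither did any of the 4157 contacts in the deposited list, each counted once. Since touching stretches of one direction would make a single peak, the opposite direction of a neighbour is a property of the list. The touching share was 55.2% (44.1 to 65.9%) from 65% GC upward, 46.4% from 60 to 65%, 27.9% (17.7 to 40.1%) from 55 to 60% and 43.6% from 53 to 55%. The interval of the highest class lay above the 36.2% of the deposited list and did not overlap that of the class from 55 to 60%. It overlapped those of the other GC-rich classes. Of the GC-poor classes it overlapped that from 30 to 45% GC (37.1%, 27.9 to 47.1%), not that from 45 to 53% (34.4%, 26.2 to 43.3%). The peaks here were drawn from those with the most reads, so the deposited list is an unlike set.

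The gap to GC-poor peaks was wider among peaks higher in CIH. There 43 of 113 GC-rich peaks (38.1%, 29.1 to 47.7%) touched a neighbour, against 30 of 123 GC-poor ones (24.4%, 17.1 to 33.0%). Among peaks higher in RA the shares were 48.9% (40.3 to 57.6%) and 48.2% (38.6 to 57.9%). In the deposited list the order was the other way, with 40.8% of CIH and 32.3% of RA peaks touching another. Whether the GC-rich and GC-poor differences differ between directions was not tested, and the CIH intervals overlap.

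The touching neighbours, which can be any deposited peak, were mostly narrower than the GC-rich peaks. All 45 neighbours of GC-rich CIH peaks were narrower, with a median of 300 bp beside 1050 bp. Of the 76 neighbours of GC-rich RA peaks, 52 were narrower, 20 wider and 4 equal in width, with a median of 450 bp beside 700 bp. The GC-poor peaks were alike in this, with all 30 neighbours of CIH peaks and 38 of 55 neighbours of RA peaks narrower. Over the deposited list the CIH peak was the wider in 2832 of 4157 contacts and the RA peak in 1033. For RA peaks the list thus went the other way from the table, which was drawn from the peaks with the most reads. Narrower neighbours were thus seen for the GC-poor peaks of the table too. In 21 touching peaks with start sites on 1 strand and 1 contact, the neighbour lay upstream of the start in 10 and downstream in 11, a number too small to show a preference or its absence.

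At 3 loci both touching peaks were GC-rich. At Jun, which encodes a subunit of the AP-1 transcription factor, a peak higher in RA (800 bp, 67.7% GC) met one higher in CIH (1050 bp, 63.7%), and a further peak higher in CIH (1300 bp, 56.1%) began 150 bp beyond. At Pmepa1, a membrane protein that dampens TGF-beta signalling, a 500 bp peak higher in RA (53.1%) met a 750 bp peak higher in CIH (65%). At Ube2j1 a 300 bp peak higher in RA (63.3%) lay between a 1500 bp peak and the 1350 bp peak of 79.0% GC, both higher in CIH. Wwtr1, which encodes the YAP partner TAZ, showed the reverse, a 200 bp peak higher in CIH between GC-rich peaks higher in RA of 750 and 1200 bp (60.9 and 61.9%). A single direction cannot be given to these genes from their peaks.

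**Figure D4:**
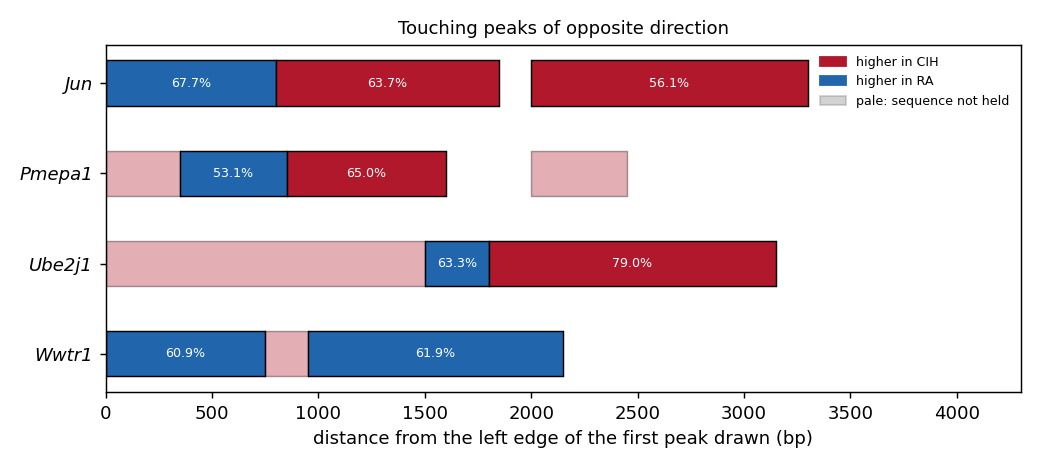
Peaks at Jun, Pmepa1, Ube2j1 and Wwtr1 drawn to scale, by distance in bp from the left edge of the first peak drawn (x axis), in red for higher in CIH and blue for higher in RA; the G+C of each GC-rich peak is written in it, and pale boxes are deposited peaks whose sequence was not held. Each touching pair changes colour at the shared edge, and 3 peaks in a row alternate at Pmepa1, Ube2j1 and Wwtr1.

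Some genes had GC-rich peaks in both directions. Of 350 paired symbols, 22 had several GC-rich peaks, and these had peaks in both directions for 11 symbols, in CIH alone for 8 and in RA alone for 3. The first group held Jun, Ube2j1, Pmepa1, Rnf114, Arfgef2, Acbd3 and Cstad, with Junos, Pmepa1os, 4933421O10Rik and Gm14488 paired with the same or neighbouring peaks. Klf4 and Nr4a3, both fast-responding transcription factors, Hnrnpu and Pde4b, a cAMP phosphodiesterase of immune cells, had 2 peaks each, all higher in CIH. Odf2 and Wwtr1 had 2 peaks each, all higher in RA.

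The CG dinucleotide content also differed between GC-rich and GC-poor peaks, in the same bases that the rule counted. The CpG ratio divides the CG dinucleotides seen by those that the C and G counts would give if bases were placed at random, and a ratio of 0.6 is a usual criterion for a CpG island. It was at least 0.6 in 176 of 250 GC-rich peaks (70.4%, 64.3 to 76.0%) and in 42 of 233 GC-poor ones (18%, 13.3 to 23.6%). The ratio rose with GC, with a Spearman correlation of 0.64 over 236 CIH and 0.67 over 247 RA peaks. This contrast is therefore partly the rule itself. Over all 483 peaks the share with at least 0.6 was 45.1%. The share rose from 46.2% at 53 to 55% GC and 42.6% at 55 to 60% to 78.6% at 60 to 65% and 97.7% from 65% upward. By direction it was 66.4% (56.9 to 75%) in CIH and 73.7% (65.5 to 80.9%) in RA, and the median ratio was 0.76 in each. The 74 GC-rich peaks with a lower ratio held a median of 13 CG dinucleotides in the bases held, the other 176 a median of 32.

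Within the GC-rich set, the peaks with a ratio of at least 0.6 touched a neighbour in 88 of 176 (42.4 to 57.6%) and the rest in 22 of 74, or 29.7% (19.7 to 41.5%). These intervals did not overlap. A higher share in CIH was seen among the rest (51.4%, 39.4 to 63.1%) than among the former (42.6%, 35.2 to 50.3%), with overlapping intervals. Within the set the ratio rose with GC (Spearman 0.65 in CIH, 0.59 in RA), so the touching contrast is not separate from that by GC class. The parts of GC and of direction in it were not tested. Paired gene number did not move with the ratio, as 48.6% and 47.2% were paired with several genes.

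RefSeq start sites were more frequent in the GC-rich peaks. The 300 bases around each RefSeq start (32851 promoters of GRCm38.p6, of which 49.9% had at least 53% GC) were matched to the bases held, which are only the left end of most peaks, so the shares are lower limits. A start site lay in 69 of 250 GC-rich peaks (27.6%, 22.2 to 33.6%) and in 10 of 233 GC-poor ones (4.29%, 2.07 to 7.75%). Over all 483 peaks the share was 16.4%. Starts were searched in the same bases whose GC set the groups, so this contrast is partly the rule itself. A start site was found in 40.2% of peaks from 65% GC upward. By direction the GC-rich shares were 28.3% (20.2 to 37.6%) in CIH and 27% (19.8 to 35.3%) in RA, with overlapping intervals. CIH peaks were wider, so the bases held were a smaller part of them. Start sites in whole peaks therefore cannot be compared by direction. Of the 69, 59 had a CpG ratio of at least 0.6.

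In 9 GC-rich peaks, 7 of them RA peaks and 2 CIH peaks, starts lay on both strands. In 7 of them the transcripts ran apart, as at Cers2 and Anxa9 (10 bp between the starts), Ss18l1 and Psma7 (19 bp), Dynlrb1 and Gm52565 (30 bp), Dph5 and A930005H10Rik (53 bp), Ube2j1 and 4933421O10Rik (57 bp), Dnaja1 and Gm6297 (81 bp) and Cyb5rl and Mrpl37 (128 bp). At Eif1ad and Banf1 (63 bp) and at Mrrf and Rbm18 (306 bp) each start lay downstream of the other, so that the first bases of both transcripts ran over the same stretch, as the capitals in the Eif1ad sequence show. The CIH peaks of this group were those at Dynlrb1 and Ube2j1. A direction at such a peak cannot be given to 1 of the genes.

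In 15 of the 69 peaks, the start site belonged to no gene the study had paired with the peak. The genes below were picked out after this match was seen. Among the 9 higher in CIH, the peak paired with Scrt2 held the start of Srxn1, which repairs over-oxidised peroxiredoxins, and the peak paired with Exd1 held that of Ino80, an ATP-driven nucleosome remodeller. Peaks paired with Mastl, BC003331 and Rnf114 held the starts of Yme1l1, a mitochondrial protease, Tpr, a nuclear pore protein, and Spata2, an adaptor in TNF receptor signalling. Among the 6 higher in RA, peaks paired with Gfi1b, Cutal and Erv3 held the starts of Tsc1, an inhibitor of mTORC1, Psmd5, a proteasome assembly factor, and Prnp, the prion protein. Those paired with Arsj and Msantd3 held the starts of Camk2d, a calcium-dependent kinase, and Tex10. The start of the paired gene may lie in the bases not held, and 65 of the 350 paired symbols had no RefSeq promoter to match, so the pairing is not shown to be wrong.

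Nearly equal numbers of GC-rich peaks were paired with 1 gene and with several, 131 and 119 (47.6%, 41.3 to 54.0%), against 42.5% (36.1 to 49.1%) of GC-poor peaks. Of these, 115 had 2 symbols, 3 had 3 (Gm20716, Dpm1 and Mocs3, and both Hnrnpu peaks with Gm28062 and Efcab2) and 1 had 6, the peak higher in CIH of 1050 bp and 64.4% GC paired with the nuclear long non-coding RNAs Malat1 and Neat1 and 4 gene models. The share was 47.8% in CIH and 47.4% in RA. Leaving out gene models, clone names, microRNAs and opposite-strand transcripts it was 30.4%, and GC did not order it within the set (Spearman -0.011 in CIH, -0.021 in RA).

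Short motifs were searched on both strands in the 243 GC-rich and 232 GC-poor peaks with at least 390 bases held. The GC box bound by Sp1 and related factors (GGGCGG) was in 136 GC-rich peaks (56.0%, 49.5 to 62.3%), 13.4% of GC-poor ones and 35.2% of all 475. Its letters are those the rule counted, so this contrast is partly the rule itself. The ETS core (CCGGAA) was in 22.2% and 9.91%, the CRE core bound by CREB and ATF factors (TGACG) in 33.7% and 18.5%, the E-box (CACGTG) in 13.2% and 4.74%, and the NRF1 core (GCATGCG) in 4.12% and 1.72%, each holding a CG. Over all 475 peaks these shares were 16.2%, 26.3%, 9.05% and 2.95%. The CCAAT box (CCAAT), bound by NF-Y, was less frequent in GC-rich peaks (33.3% against 47.8%, and 40.4% of all), and the TATA box (TATAAA) was in 5 of 243 (2.06%) against 23.3% of GC-poor and 12.4% of all peaks. All motifs were searched in the bases whose GC set the groups, so these contrasts too are partly the rule itself.

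By direction the motif shares lay within each other's intervals. The GC box was in 54.9% (45.2 to 64.2%) of GC-rich CIH peaks and 56.9% (48.0 to 65.6%) of RA peaks, the CRE core in 37.2% (28.3 to 46.8%) and 30.8% (23.0 to 39.5%), the CCAAT box in 36.3% and 30.8%, the ETS core in 20.4% and 23.8%, and the E-box in 13.3% and 13.1%. The 5 peaks with a TATA box were at Pea15a and the last Jun peak, higher in CIH, and at Pfdn4, Erv3 and the RA peak of Pmepa1. In the bases held, which are a smaller part of the wider CIH peaks, no motif searched thus marked a direction at this number of peaks. A match is a match of letters only.

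**Figure D5:**
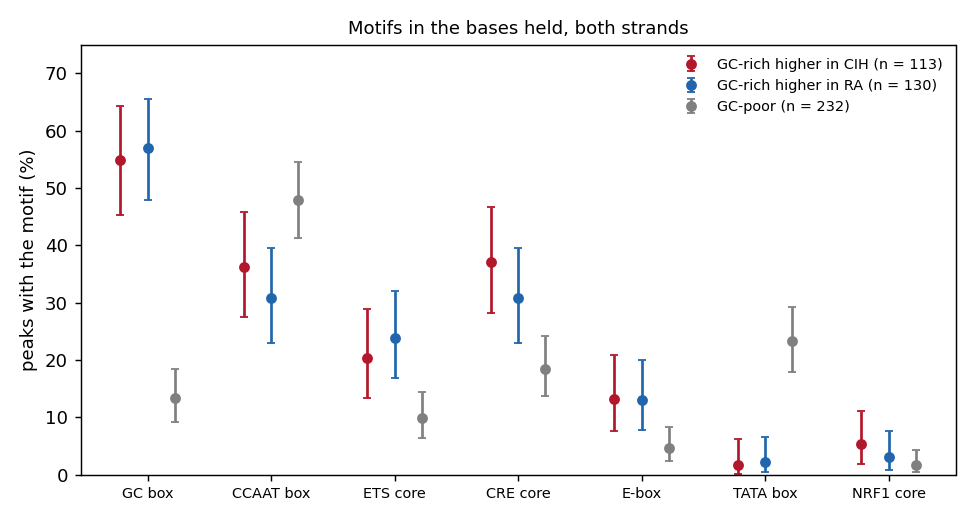
Share of peaks (y axis, percent) that hold each motif on either strand in the bases held, for 113 CIH peaks (red) and 130 RA peaks (blue) of the GC-rich set and 232 GC-poor peaks (grey), with exact 95% intervals. Red and blue intervals overlap for every motif, while the GC box is at 54.9 and 56.9% against 13.4% in grey.

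The paired genes are grouped below by role, in lists put together with these peaks known, so that a list's coverage is no result and the counts only describe. For comparison, 45.2% of all 250 GC-rich peaks were higher in CIH, and 29.5% of the 88 on chromosome 2. No direction of a list is read from its counts. In the list of fast and stress-responsive regulators, 18 of 27 genes had GC-rich peaks, with 12 RA peaks and 10 CIH peaks. Those in CIH were at Klf4 (1400 and 1000 bp, 61.9 and 56.9% GC), Nr4a3 (1300 and 750 bp, 73.4 and 70.5%), Btg2, an antiproliferative protein (1500 bp, 55.6%), Hipk3, Pnrc1 and Txnip, besides Jun. Those in RA were at Nr4a2 (550 bp, 70.4%), Foxo1 (750 bp, 61.2%), Mxi1 (600 bp, 65.9%), Dusp5, Id3, Klf9, Atf6, Bcl2l11, Ier5l and Rgs2. Some of these genes also had GC-poor peaks of the other direction. Klf9 had a CIH peak of 4150 bp and 47.6% GC beside its GC-rich RA peak of 600 bp, Id3 a CIH peak of 1250 bp (44.1%), and Foxo1 a CIH peak of 2800 bp (46.1%) and another RA peak of 950 bp (50.9%). The GC-rich peaks of these 3 genes, singled out after their values were seen, therefore did not give the direction of the gene as a whole, while the 3 peaks of Btg2 were all CIH peaks. The Dusp5 peak, also paired with Smc3, held the start of Smc3. The Ier5l peak, also paired with Ppp2r4, held the start of Ppp2r4 under its RefSeq symbol Ptpa.

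Of 20 genes of NF-kB and innate receptor signalling, 12 had a GC-rich peak, 5 in CIH and 7 in RA. In CIH were the NF-kB subunit genes Rela (1550 bp, 55.4%) and Nfkb2 (450 bp, 61.9%), with Fgr, Mapkapk2 and Ptpn1, a tyrosine phosphatase. In RA were Tank (550 bp, 64.7%, with its start site), an adaptor of TRAF proteins, Pik3ap1 (950 bp, 65.7%), the platelet-activating factor receptor gene Ptafr, Isg15, Dab2ip, Fcgr3 and Mertk. The start site in the Fcgr3 peak was that of Cfap126. That found in the Ptpn1 peak belonged to Gm32287. The median GC of the peaks of this list, 56.1%, was below the 61.9% of all GC-rich peaks.

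Of 16 genes of hypoxia, redox balance and glycolysis, 8 had a GC-rich peak, 5 in CIH and 3 in RA. Arnt, the partner of the hypoxia-inducible factors, had a CIH peak of 850 bp and 67.7% GC that held its start site and touched a 200 bp peak higher in RA. Txn1, thioredoxin, had a CIH peak of 1500 bp (55.9%), and so had Txnip, whose 2150 bp peak held its start, and the endoplasmic reticulum disulphide isomerase gene Pdia3 (1250 bp, 58.9%). The CIH peak paired with the glycolytic gene Eno1 (1500 bp, 65.6%) was also paired with Rere and held the start of Rere. The RA peaks included those at Aco1, an iron-sensing aconitase (1400 bp, 59.7%), and Mxi1, a repressor of Myc targets.

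Genes of RNA processing and translation had 16 peaks in CIH and 12 in RA. The former included Hnrnpu (1700 and 1150 bp), Tardbp (1750 bp), which encodes the RNA-binding protein TDP-43, Srsf4 (1350 bp) and the cap-binding factor Eif4e (650 bp), and the latter Srsf6 (250 bp, 71.4% GC, the narrowest width of all 250) and Rbm39 (450 bp). Hnrnpu, Srsf6 and Rbm39 also had GC-poor peaks, so their GC-rich peaks do not give a direction for the gene as a whole. Chromatin and transcription genes had 9 and 13, with the SWI/SNF subunit gene Arid1a (1350 bp), the methyltransferase gene Ash1l (800 bp) and H3f3a (950 bp), a histone H3.3 gene, in CIH, and Ncoa3 (1050 bp), Psip1 (800 bp), Smc3 (550 bp) and Top1 (500 bp) in RA. The start site found in the H3f3a peak, also paired with Acbd3, was that of 2900024J01Rik. GC-rich peaks of splicing factor genes thus lay on both sides, Srsf4 in CIH and Srsf6 in RA.

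Protein folding and degradation genes had 5 peaks in CIH and 11 in RA, among them the Hsp40 genes Dnajb5 (2150 bp, CIH) and Dnaja1 (800 bp, RA) and the proteasome subunit gene Psma5 (1050 bp, RA). The Dnaja1 peak also held the hairpin of Mir207, whose mature sequence in RefSeq is printed with its seed in capitals; the mark was read on chromatin, and no level of the microRNA was measured.
mmu-miR-207: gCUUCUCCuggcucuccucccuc

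Membrane trafficking genes were even, with 11 peaks in each direction, as Rab2a (1400 bp), Copa (1200 bp) and Gorasp2 in CIH and Pi4kb (1250 bp) and Rnd3 in RA. Lipid and sterol genes had 2 in CIH, Cyp51 (850 bp, 67.4%), which acts on lanosterol in cholesterol synthesis, and Pank2 (1100 bp, 70.9%), the first enzyme of coenzyme A synthesis, and 8 in RA. The RA peaks included Cers2 (1000 bp, 73.6%), a ceramide synthase, Sgms2 (2450 bp, 56.9%), Adipor1 (800 bp, 71.2%), Elovl3, Ptgds, Rbp7 and Pprc1. The start site in the Adipor1 peak was that of Klhl12. The lipid list held 10 GC-rich peaks in all, too few to read a direction from.

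The cell type was checked against markers, as far as chromosomes held allow. Of 10 macrophage markers, Mertk, a receptor for apoptotic cells (750 bp, 54.6%), and the Fc receptor gene Fcgr3 (450 bp, 53.9%) had a GC-rich peak, both higher in RA, and none of 23 markers of neutrophils, lymphocytes, smooth muscle, endothelium, fibroblasts and adipocytes had a peak in the rows held. The start site in the Fcgr3 peak was that of Cfap126. Differential peaks do not show where the mark was equal, so the makeup of the cells was not measured here, and a change in makeup and a change in the mark per cell cannot be told apart.

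No GC-rich peak shared a base with any of the 146 differential peaks of H3K27me3, the mark that Polycomb complexes leave on repressed genes. For 0 of 250 peaks, the exact 95% interval reaches 1.46%, and the limit of 3 counts is 1.2%. The 233 GC-poor peaks shared none either, so this was not particular to GC-rich sequence. The share over the whole deposited H3K9ac list was not computed, so nothing about the 2 marks is read from the lack of overlap.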

How the data were processed

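The authors immunoprecipitated chromatin of aorta macrophages and sequenced 4 libraries, 1 per mark and exposure, without input. Per the submitters' processing notes, the tools included MACS2 2.1.0, BWA 0.7.12, Trimmomatic 0.32, Picard 1.121, SAMtools 1.2 and bedtools 2.23.0, and the mouse build was mm9. The authors removed low complexity and blacklisted regions and combined the calls of 2 tools. The deposited list of each mark holds peak positions on a 50 bp step, a name, a sign and a score, and this deposited score, always 1000, could not serve as a stricter threshold. The files hold no read counts; the study states a higher sequencing yield for the CIH than for the RA library of H3K9ac, and yields were not used here.

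Sequences, paired gene symbols and direction labels came from the rows held of the supplementary table, 742 rows in order of peak name, which cover few chromosomes. Its read counts and p-values were not used here, so no count ratio by GC is given. The sign of the deposited list was read through the direction labels, and the H3K27me3 list likewise. At most 400 bases were held per peak, and 242 of 250 GC-rich peaks were longer, so GC, CpG ratio and motifs describe the left end; unknown bases (N) were left out of both ratios and occurred in 66 GC-rich peaks, 21.9% of the RA peaks and 31.9% of the CIH peaks. A symbol turned into a number by a spreadsheet was kept as it stood.

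Peaks touched where the gap was 0 bp. RefSeq promoters (250 bases before to 50 after a start, GRCm38.p6) were matched by 24-base words, with at least 40 words on 1 diagonal, and 285 of 350 paired symbols (81.4%) had a promoter there. Coordinates are those of mm9 and none were converted; exons and introns were not analysed here. The sequence functions were tested on made-up sequences. Shares carry exact Clopper-Pearson 95% intervals. With 1 library per group no test, standard deviation or p-value was computed. Python 3.11.15, numpy 2.4.6, pandas 2.3.3, scipy 1.17.1 and matplotlib 3.10.9 were used.

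The genes named are those of the 6 peaks highest in GC and the 5 widest in each direction, of peaks touching another GC-rich peak, sharing a symbol or paired with at least 4 symbols, of the 3 on either side of the threshold with ties, and of the gene lists, and others are said to be picked later. A few peaks that this rule names are not reported here by gene. The members and lists were chosen with earlier results of these data known. Alternatives changed the GC threshold, the window, the gap, the symbols counted, the CpG ratio, the strand searched and the peaks kept.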

Additional observations from a re-analysis of the deposited data

How the results depend on the processing

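Of 38 alternative values, 22 stayed within the interval of the reported value, or for the number of peaks within 1.5 times, and 16 did not. A GC threshold of 60% kept 143 peaks, of which 51.7% touched a neighbour, and one of 50% kept 304 and moved no share or median outside its interval. Without chromosome 2, an alternative chosen after seeing the data, 53.7% of the GC-rich peaks were higher in CIH; leaving out chromosome 4 or touching peaks, chosen likewise, gave 42.9% and 70 of 140 peaks. Gaps of up to 1000 bp raised the touching share to 53.2%. Leaving out gene models and non-coding symbols lowered the share paired with several genes to 30.4%. A CpG ratio of 0.75 was reached by 52.8%. Searching only the strand as given lowered the shares to 37.0% for the GC box, 18.9% for the CCAAT box, 14.8% for the ETS core, 19.8% for the CRE core and 0.412% for the TATA box, and searching only the first 250 bases gave 44.4%, 21.6%, 16.0% and 21.6% for the first 4 and 6.00% for the E-box, both of which search less sequence. The cause of the other moves was not tested. No paired analysis was possible because each group held 1 library. The lack of replicates, input and full sequences, and read counts that were not used here, limit every share.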
